A study of Arabidopsis thaliana with 16 samples.

Results

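Class III peroxidases are the secreted heme peroxidases of land plants. They use hydrogen peroxide to couple monolignols into lignin and to cross-link wall proteins and phenolics, which stiffens the cell wall, and they can also make reactive oxygen species that loosen it or that serve in defence. Many members of this large family are expressed in roots, and single genes differ widely in tissue and in their response to stress.

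The family was given here as 60 Arabidopsis loci, matched to the locus of each probe set on the array. Of these, 47 had a probe set assigned to exactly 1 gene and are described below, out of 13356 genes with such a probe set. Each of the 47 had 1 such probe set, and none carried a name suffix that marks cross-hybridization. Another 4 loci (AT2G38380, AT3G17070, AT4G37520 and AT4G37530) were covered by probe sets shared with another gene, and 9 had no probe set named here: RCI3, PER4, AT3G32980, PRXCA, PRXCB, PA2, RHS18, PER64 and RHS19. Genes are called by their symbol or numbered name where the RefSeq gene table gives one, and otherwise by locus code.

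RNA came from whole seedlings of the Columbia ecotype, 14 days old and grown on MS medium in 16 h of light and 8 h of dark. Wild type seedlings and seedlings overexpressing the rice glutaredoxin gene OsGRX8 were kept for 3 h in water, 200 mM NaCl, 100 µM of the auxin indole-3-acetic acid (IAA) or 25 µM methyl viologen (MV, a herbicide that passes electrons from photosystem I to oxygen and so makes superoxide). Each of the 8 groups held 2 Affymetrix arrays, called biological replicates in the design text. The promoter of the transgene and the number of independent lines were not stated in the labels used here. All levels below are log2 signals as deposited, and a difference of 1 is a 2-fold change.

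Array medians lay between 2.94 and 3.20, replicates correlated at 0.966 to 0.994, and no 2 arrays were identical. IAA replicate 2 stood apart in both lines: on these arrays the 3′ actin control exceeded the 5′ one by 4.43 and 6.1 (log2), against 1.13 to 2.57 on the other 14. The green tissue marker RCA (Rubisco activase) measured 10.15 to 11.60 over all arrays, and the anther regulator AMS 0.89 to 1.41. Of the 2 root markers measured, PYK10 gave 8.62 to 9.69 and EXPA7 1.14 to 2.30. Of the marker genes listed, 2 of 5 for root, 1 of 7 for green leaf, 0 of 4 for seed and 1 of 1 for anther could be measured. The Trpn controls, which have no target in plant RNA, gave 0.68 to 1.21. A gene is called near background in a group where its mean was within 1 log2 unit of the highest Trpn mean there. By that measure 15 of the 47 peroxidase genes were near background in all 8 groups, 19 in none and 13 in some.

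Group means of 22746 probe sets were modelled together with limma, and p-values were adjusted over all of them with the Benjamini-Hochberg method, with a threshold of 0.05. Over all 8 groups at once, 22 of the 47 genes varied by the moderated F-test, against 24.3% of all probe sets. The map of responses by gene shows most calls against water under NaCl.

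**Figure D1:**
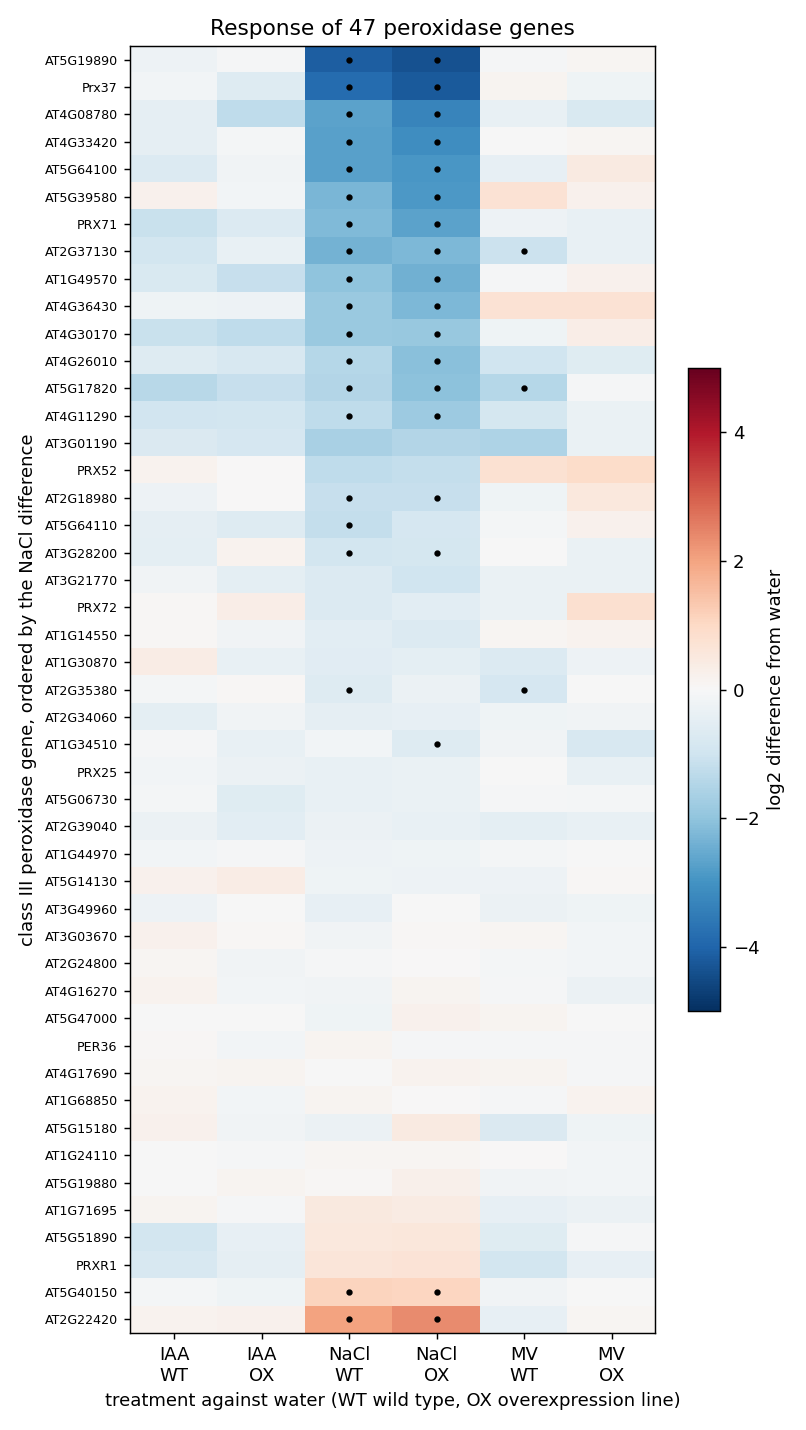
Log2 difference of each of the 47 peroxidase genes from water (colour, blue lower and red higher) for IAA, NaCl and MV in the wild type (WT) and the overexpression line (OX), with 2 arrays per group and genes ordered by their NaCl difference averaged over the lines. Black dots mark adjusted p under 0.05 (limma): they number 20 and 19 under NaCl, 0 and 0 under IAA, and 3 and 0 under MV.

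Salt lowered a large part of the family within 3 h. Averaged over both lines, 23 of 47 genes fell and 3 rose under NaCl, against 12.3% of all probe sets lower and 13.3% higher (25.5% either way). The fitted falls ranged from 0.42 to 4.24 on the log2 scale, and 5 were under 2-fold. In 10 genes the fitted fall was at least 4-fold: 6 of them kept an NaCl signal above background, and the other 4 were near background under NaCl in both lines, so that their size is a bound. The median difference was -0.46 over the 47 genes and 0.00 over all probe sets. On 25 of the 47 genes every NaCl array lay below every water array (15.8% of all probe sets), and on 3 every NaCl array lay above (16% of all probe sets). In whole seedlings, fewer cells of a type and less RNA per cell cannot be told apart.

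AT5G19890 and Prx37 had the largest fitted falls, which cannot be ranked because both ended near background. AT5G19890 measured 5.84 and 5.44 on the wild type water arrays, 5.84 and 6.002 on those of the overexpression line, and 1.33, 1.74, 1.64 and 1.49 on the 4 NaCl arrays. The 2 sets of arrays are far apart, and the NaCl signals lie near background. The difference was -4.24 ± 0.24 (standard error of the fit, 4 arrays against 4, limma adjusted p = 9.66e-08). Because the NaCl side was near background, the fall is a bound: at least 12.8-fold in the wild type and 14.4-fold with OsGRX8, taken against the limit for near-background signal.

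Prx37 encodes a vascular peroxidase whose overexpression stunts plant growth. It measured 5.85 and 4.79 in wild type water, 6.08 and 5.97 in overexpression line water, and 1.35, 1.61, 1.40 and 2.21 under NaCl. Even the highest NaCl array was more than 2 log2 units below the lowest water array. The difference was -4.03 ± 0.31 (limma adjusted p = 1.26e-06), or at least 10.2-fold in wild type seedlings and 15.4-fold with OsGRX8.

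AT4G08780, which lies next to Prx37 on the chromosome, fell too. Its signals were 4.37, 3.45, 4.63 and 5.10 in water and 1.08, 1.41, 1.63 and 1.53 under NaCl. The difference was -2.97 ± 0.27, with bounds of at least 3.84-fold and 6.91-fold in the 2 lines. AT4G33420 went from 5.59, 5.92, 5.70 and 6.31 to 2.93, 3.15, 3.44 and 2.35, a difference of -2.91 ± 0.23. It kept a signal above background under NaCl, so its 7.53-fold fall is a measured value.

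PRX71 restricts cell expansion and is linked to wall integrity. It read 9.45, 9.13, 9.71 and 9.67 in water and 7.09, 7.06, 7.15 and 6.85 under NaCl. The difference was -2.45 ± 0.28 (5.47-fold, limma adjusted p = 2.69e-05), and the NaCl arrays lay close together. AT5G64100 read 7.57, 7.55, 7.53 and 7.86 in water and 4.72, 4.95, 4.80 and 4.73 under NaCl, at -2.82 ± 0.23. AT5G39580 dropped from 7.94, 7.78, 8.13 and 8.35 to 5.93, 5.25, 5.49 and 5.24, at -2.57 ± 0.16. AT2G37130 dropped from 6.99, 7.14, 7.16 and 7.33 to 4.37, 5.02, 4.60 and 5.38, at -2.31 ± 0.17. For these 4 genes the signal stayed well above background on every array, so the falls do not rest on a floor.

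A further 10 genes fell by between 1.01 and 2.20: AT1G49570 (-2.20), AT4G36430 (-2.05), AT4G30170 (-1.87), AT4G26010 (-1.76), AT5G17820 (-1.75), AT4G11290 (-1.54), AT3G01190 (-1.54), PRX52 (-1.23), AT2G18980 (-1.15) and AT5G64110 (-1.01). Of these, AT1G49570, AT4G11290, AT4G26010 and PRX52 were near background under NaCl in both lines, so their values understate the fall if the true level is lower. PRX52 contributes to the lignin of interfascicular fibres. It measured 2.94, 2.33, 2.87 and 2.44 in water and 1.21, 1.54, 1.73 and 1.19 under NaCl (limma adjusted p = 0.0463). The smallest falls were those of AT3G28200 (-0.90), AT3G21770 (-0.84), AT1G14550 (-0.60), AT2G35380 (-0.46) and AT2G34060 (-0.42), and AT1G14550 and AT2G35380 were near background in all 8 groups.

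The 3 rises went against the family's direction. AT2G22420 was near background in water, at 1.34, 1.16, 1.35 and 1.25, and measured 3.03, 3.51, 3.73 and 3.59 under NaCl. No array of the one condition came near those of the other. The difference was 2.19 ± 0.13 (limma adjusted p = 2e-07), a rise of at least 2.48-fold in wild type seedlings and 3.36-fold with OsGRX8. AT5G40150 rose by 1.11 ± 0.17, from 2.25, 2.07, 2.12 and 2.10 to 2.89, 3.69, 3.37 and 3.03. AT1G71695 rose by 0.45 ± 0.14 (limma adjusted p = 0.0373), with overlap: its NaCl arrays read 6.49, 6.83, 6.91 and 7.14 and its water arrays 6.14, 6.24, 6.47 and 6.73.

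**Figure D2:**
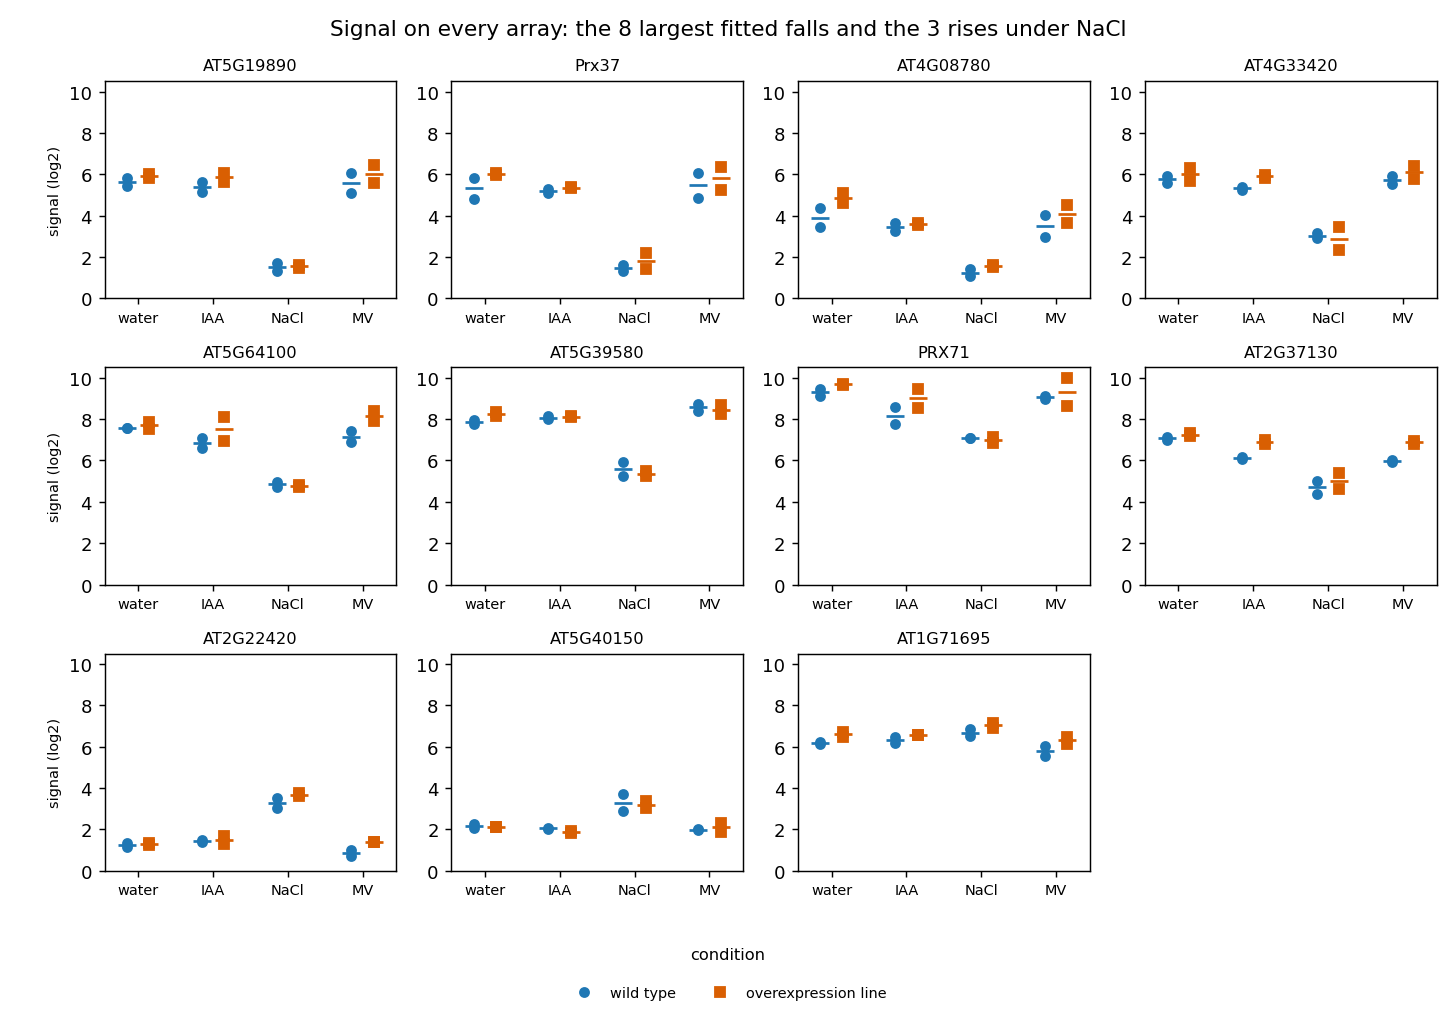
Log2 signal on each of the 16 arrays (points, 2 per group, with a bar at the group mean) for the 8 peroxidase genes with the largest fitted NaCl falls and the 3 that rose, by condition and line. For AT5G19890 the NaCl arrays lie between 1.33 and 1.74 and the water arrays between 5.44 and 6.002, while AT2G22420 stands apart upward under NaCl.

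The other 21 genes passed neither way under NaCl, and 13 of them were near background in all 8 groups. The remaining 8 had a signal in at least 1 group. PRXR1 read 8.86, 9.15, 8.82 and 9.11 in water and 9.42, 9.79, 9.87 and 9.40 under NaCl, with no overlap, at 0.64 ± 0.22 (limma adjusted p = 0.0531). PRX72, which acts in lignification, stood at -0.60 ± 0.23 (adjusted p = 0.0798, limma) and its NaCl arrays also lay below all water arrays. PRX25, another lignin-linked member, stood at -0.34 ± 0.13. The others were AT5G51890 (0.56 ± 0.41), AT1G30870 (-0.54 ± 0.30), AT2G39040 (-0.32 ± 0.15), AT5G14130 (-0.22 ± 0.14) and AT5G15180 (0.08 ± 0.22), with adjusted p-values from 0.142 to 0.861 (limma). PER36, needed for mucilage release from the seed coat, was among the 13, with signals between 0.89 and 1.49 on all arrays.

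Of the 26 calls under NaCl, 20 were kept in every alternative analysis in which the gene was fitted. PRX52 no longer passed without any 1 of the 8 water and NaCl arrays (limma adjusted p at most 0.151), and AT3G21770, AT1G71695, AT2G34060, AT2G35380 and AT1G14550 each lost their call without some of them (at most 0.106, 0.149, 0.084, 0.1 and 0.063). AT1G71695 also lost it with median centring and AT2G34060 with an intensity trend.

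By lists of known roles, 8 members were listed for lignification and 7 of them were measured: under NaCl over both lines 3 fell, 1 rose and 3 passed neither way. Among the 4 of these that the RefSeq table names, PRX52 and PRX71 fell, and PRX72 and PRX25 passed neither way. Both measured members of 5 listed for the oxidative burst and defence fell, as did 1 of 2 measured of 4 listed for root hairs, and neither of the 2 listed for anthers passed. The anther members and the root hair member that did not pass were near background in all 8 groups, which left little room for a fall. AT1G14550 and AT2G35380 did pass as lower at such levels. Among all 47 members 23 fell and 3 rose, against 12.3% and 13.3% of all probe sets. Whether the roles differ in their response was not tested. Under IAA none of these lists held a call, where 0.62% of all probe sets were called. Under MV 1 defence member and 1 root hair member fell, against 3.35% of all probe sets. Most members in these lists carry a locus code alone in the table, and no role is given to them singly here.

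The lines gave like counts under NaCl. In the wild type 18 genes fell and 2 rose, against 6.51% and 7.61% of all probe sets (14.1% either way). In the overexpression line 17 fell and 2 rose, against 7.75% and 7.94% (15.7%). The lines share no array, and 16 of the falls were common to both, which is 88.9% of the wild type falls and 94.1% of those in the overexpression line. Both rises, of AT2G22420 (2.02 and 2.36) and AT5G40150 (1.13 and 1.09), were common as well. AT2G35380 and AT5G64110 passed in the wild type alone, at -0.63 and -1.18, and stood at -0.29 and -0.85 in the overexpression line. AT1G34510, near background in all 8 groups, passed in the overexpression line alone, at -0.65 against -0.14. None of the 47 genes passed the test of the difference between the lines' NaCl responses (limma, 0 at an unadjusted p under 0.05 as well, against 2.16% of all probe sets). For Prx37 that difference was -0.37, with a 95% confidence interval of -1.73 to 0.98, and for AT5G19890 -0.25 (-1.28 to 0.78). Without NaCl replicate 1 of the wild type, 13 genes passed there in place of 20.

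**Figure D3:**
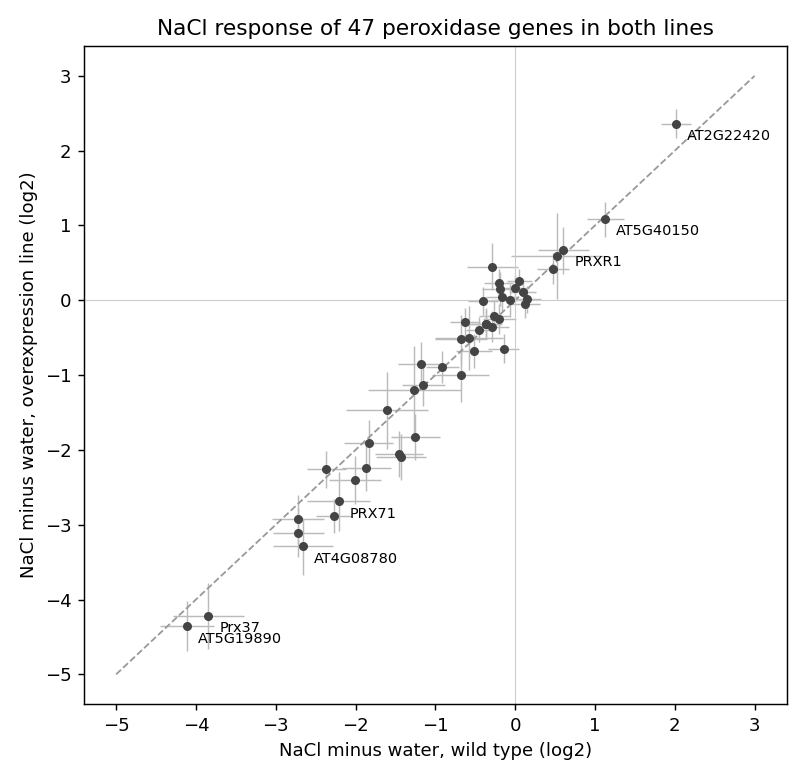
NaCl minus water (log2) for each of the 47 peroxidase genes in the wild type (horizontal) and the overexpression line (vertical), with standard errors of the fit as bars and a dashed line where both are equal. AT5G19890 lies at -4.11 and -4.36 and AT2G22420 at 2.02 and 2.36.

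Of 15 peroxidase loci in neighbouring groups, 9 were measured, and 7 of these fell under NaCl over both lines. Among all 47 members 23 fell, as did 12.3% of all probe sets. AT5G19880 and AT5G06730 did not pass and were near background in all 8 groups. Whether lying next to another peroxidase gene bears on a fall was not tested. The list holds 7 groups of nearby peroxidase loci, and in 3 of them more than 1 gene was measured; in each of these 3 no other protein-coding gene lies between the members in the TAIR10.1 annotation. Prx37 and AT4G08780 both fell, at -4.03 and -2.97. AT5G19890 fell by 4.24, whereas its neighbour AT5G19880 had signals of 0.85 to 1.33 on all arrays. AT5G19880 was near background in each group, which left little room for a fall to be seen. In the group of 3, AT5G64100 (-2.82), AT5G64110 (-1.01) and PRX71 (-2.45) fell, and AT5G64110 read 5.30, 5.57, 5.63 and 5.68 in water and 3.80, 4.71, 4.61 and 5.004 under NaCl. Whether the sizes of these falls differ between genes was not tested.

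**Figure D4:**
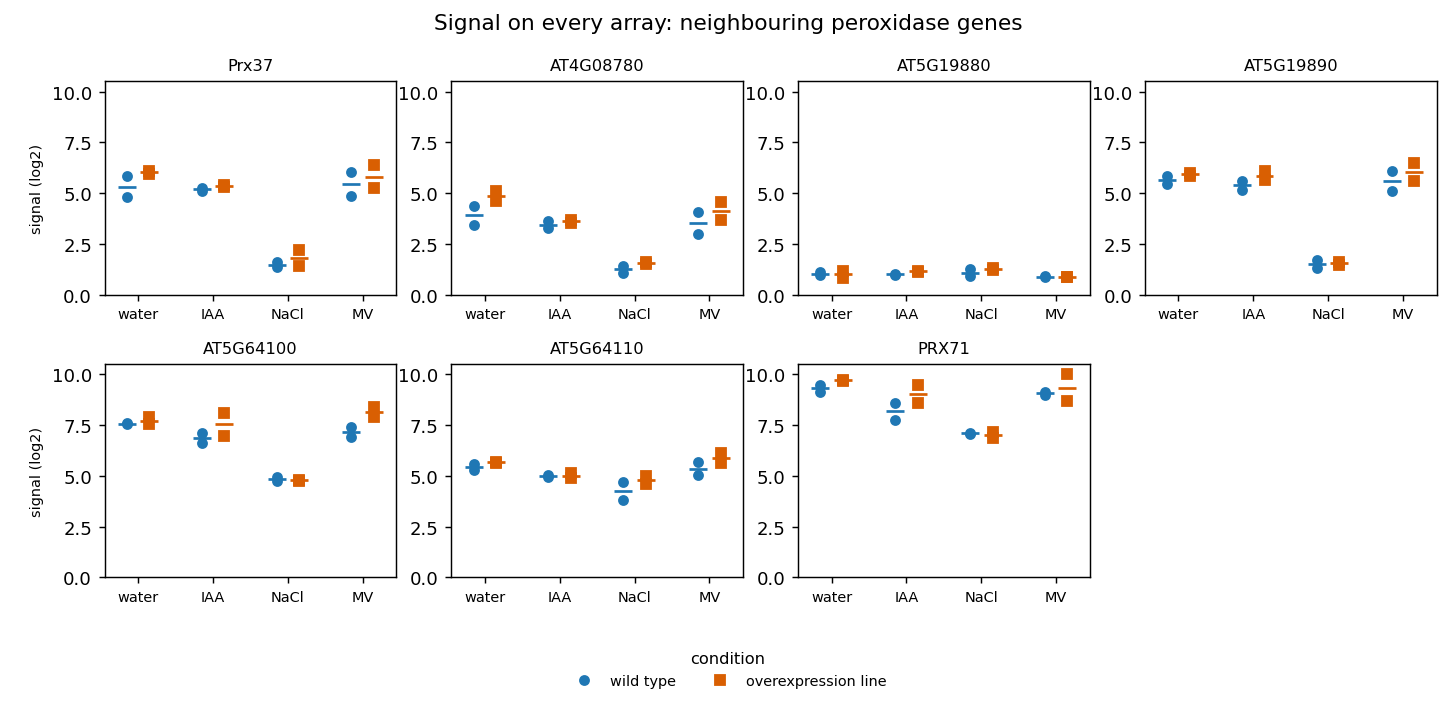
Log2 signal on each of the 16 arrays (points, 2 per group, with a bar at the group mean) for the 3 groups of adjacent peroxidase genes, by condition and line. AT5G19880 stays between 0.85 and 1.33 in all conditions, while its neighbour AT5G19890 falls from 5.44 or more in water to 1.74 or less under NaCl.

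Probe sets shared between genes were read for the 4 members that had no other. The probe set of the adjacent genes AT4G37520 and AT4G37530 fell under NaCl, from 7.46, 7.14, 7.68 and 7.74 to 5.51, 4.88, 5.57 and 5.24, a difference of -2.20 ± 0.18 (limma adjusted p = 2.37e-06). It also fell by 0.68 ± 0.18 under MV (adjusted p = 0.0411). The probe set of AT2G38380 and AT2G38390 fell by 1.31 ± 0.25 under NaCl (limma adjusted p = 0.00169). That of AT3G17070 and AT3G42570 stood at -0.56 ± 0.30 and did not pass. Which gene of each pair gave these signals cannot be told from the array.

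Few genes of related processes could be measured. Of 18 genes of monolignol synthesis, which makes the substrates of lignin peroxidases, 2 had a probe set of 1 gene, and both fell under NaCl over the lines: the cinnamoyl-CoA reductase gene CCR2 by 2.58 ± 0.27 and the hydroxycinnamoyl transferase gene HCT by 0.99 ± 0.17. Over all probe sets 12.3% fell under NaCl and 3.35% under MV. HCT also fell by 0.62 ± 0.17 under MV (limma adjusted p = 0.0447), whereas CCR2 stood at 0.57 ± 0.27 there and did not pass. Of 10 respiratory burst oxidases, which supply superoxide to the wall, 3 were measured (AT1G19230, AT4G25090 and AT4G11230). None of these passed under any treatment averaged over the lines. Neither did 1 measured laccase of 17 (LAC16) or 1 Casparian strip gene of 8 (GSO1). Of 11 ascorbate peroxidases and catalases, 2 ascorbate peroxidases (SAPX and TAPX) were measured and did not pass. Whether the genes that did not pass had a signal above background is not given here. Of 10 other root hair genes, 2 were measured: the expansin gene EXPA7 passed as lower under NaCl (limma adjusted p = 0.00297) but read 1.14 to 1.56 there, near background, and 1.92 to 2.20 in water, close to the limit, and EXPA18 stood at -0.36. EXPA7 was also 1 of the 2 root markers measured. The other, PYK10, stood at -0.16 under NaCl (adjusted p = 0.676, limma), and the leaf marker RCA stood at 0.29 (0.354). The part of root and leaf shares in the peroxidase results was not tested.

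Few members passed the test under auxin, though the share called lower was above that of all probe sets. Averaged over the lines, 2 of 47 genes (4.26%) fell and none rose under IAA, against 0.11% of all probe sets lower and 0.51% higher (0.62% either way). At an unadjusted p under 0.05 (limma), 13 of the 47 (27.7%) differed, against 12.5% of all probe sets. The median difference was -0.16 over the 47 genes and 0.02 over all probe sets. AT5G17820 read 3.85, 3.70, 4.06 and 4.56 in water and 2.22, 2.57, 3.58 and 2.71 under IAA. The difference was -1.27 ± 0.21 (limma adjusted p = 0.016). AT4G30170 read 6.36, 5.71, 5.72 and 6.15 in water and 4.93, 4.92, 4.76 and 4.55 under IAA, at -1.20 ± 0.22 (adjusted p = 0.0292, limma). In both genes the IAA arrays lay below all water arrays, as they did in 6 of the 47 (2.61% of all probe sets).

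Neither of the lines alone gave a call under IAA (limma, 0 genes in each, with 0.207% and 0.215% of all probe sets called, 0.0132% and 0.00879% lower, 0.193% and 0.207% higher). At an unadjusted p under 0.05, 9 of the 47 genes (19.1%) differed in each line, against 12.1% of all probe sets in the wild type and 4.26% with OsGRX8. In the wild type and with OsGRX8 AT5G17820 stood at -1.38 and -1.17, and AT4G30170 at -1.11 and -1.28. Without the 2 arrays of IAA replicate 2, the ones with the weak 5′ actin signal, 0 of the 47 passed over the lines, with both genes then at -1.14 (adjusted p = 0.201 for AT4G30170 and 0.0567 for AT5G17820, limma). Over the alternatives run, AT5G17820 ranged from -1.49 to -1.06 and AT4G30170 from -1.36 to -1.04. The 2 calls were also lost on the compared arrays only, without replicate 1 of the wild type water group, without water replicate 2 or IAA replicate 2 of the overexpression line, and AT4G30170 was lost without its water replicate 1. AT4G30170 was lost as well without IAA replicate 2 of the wild type, and AT5G17820 without its water replicate 2, where another gene passed instead. Without IAA replicate 1 of the wild type, that group rested on 1 array, where the 3′ actin control exceeded the 5′ one by 6.1 (log2). More members passed then, but calls over all probe sets rose steeply as well, so this is not read as a response of the family.

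Under methyl viologen few members passed the test. Averaged over the lines 2 of 47 genes (4.26%) fell and none rose, against 3.35% of all probe sets lower and 4.13% higher (7.48% either way). The share called lower was near that background. AT2G37130 read 6.99, 7.14, 7.16 and 7.33 in water and 5.93, 6.03, 6.96 and 6.79 under MV, at -0.73 ± 0.17 (limma adjusted p = 0.0224). AT4G26010 stood at -0.80 ± 0.22 (adjusted p = 0.0463, limma), with overlapping arrays: 2.78, 3.20, 3.11 and 4.07 in water and 1.96, 2.03, 2.88 and 3.11 under MV, the wild type mean being near background. Neither call was kept in every alternative. Both were lost in most fits that left out 1 of the arrays compared, and that of AT4G26010 with median centring as well. Over the alternatives AT2G37130 ranged from -0.77 to -0.69 and AT4G26010 from -1.04 to -0.56. Among the genes that salt lowered, Prx37 stood at -0.04 ± 0.31, AT5G19890 at 0.03 ± 0.24 and PRX71 at -0.31 ± 0.28 under MV. AT4G08780, which salt also lowered, read 4.37, 3.45, 4.63 and 5.10 in water. Under MV it read 4.05, 2.98, 4.54 and 3.67, with overlap, and did not pass. AT2G37130, called under MV, fell under NaCl as well. These genes are examples, and the salt-lowered genes as a set were not tested under MV. The MV comparisons share their water arrays with those of NaCl.

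In the wild type 3 genes fell under MV and none rose, against 1.77% of all probe sets lower and 2.56% higher (4.33%). With OsGRX8 none did (limma), against 0.246% lower and 1.21% higher (1.46%), and 3 of the 47 genes (6.38%) had an unadjusted p under 0.05 against 9.73% of all probe sets. AT5G17820 read 3.85 and 3.70 in wild type water and 2.01 and 2.70 under MV, against 4.06 and 4.56 in water and 4.40 and 4.13 under MV in the overexpression line. Its MV difference was -1.42 ± 0.30 in wild type seedlings (limma adjusted p = 0.0191) and -0.05 ± 0.30 with OsGRX8. AT2G37130 stood at -1.09 and -0.37, and AT2G35380, near background in all 8 groups, at -0.86 and -0.01. Without water replicate 2 of the wild type 0 genes passed there, and 1 without its water replicate 1 or MV replicate 2. The difference between the lines' MV responses did not pass for any of the 47 genes: for AT5G17820 it was 1.37 ± 0.43, with a 95% confidence interval of 0.44 to 2.30 and an adjusted p of 1 over all probe sets (limma). Before adjustment 4 of the 47 (8.51%) had a p under 0.05, against 2.2% of all probe sets.

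AT3G01190 also read lower under MV in wild type seedlings, 2.63 and 2.96 against 4.28 and 4.43 in water, and did not pass. Other members stood higher under MV without passing the test. AT4G36430 read 5.56, 4.84, 5.65 and 5.03 under MV, above all 4 water arrays (4.78, 4.20, 4.54 and 4.72), at 0.71 ± 0.22 (limma adjusted p = 0.0696). AT5G39580 stood at 0.47 ± 0.16. PRX52 stood at 0.84 ± 0.42, with 4.13 and 4.50 on MV replicate 1 of the lines and 2.68 and 2.64 on MV replicate 2. PRX72 stood at 0.81 ± 0.33 with OsGRX8 and -0.35 ± 0.33 without. These genes were named after their values were seen.

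**Figure D5:**
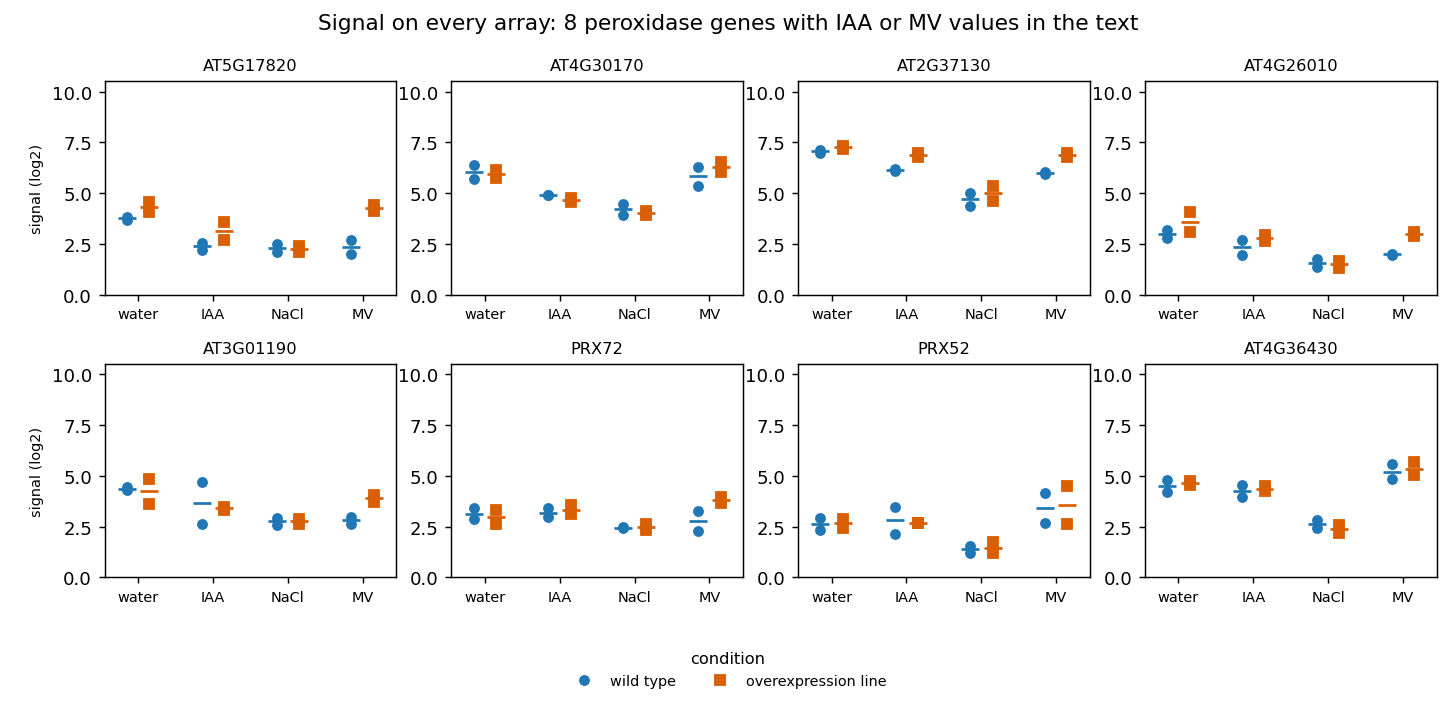
Log2 signal on each of the 16 arrays (points, 2 per group, with a bar at the group mean) for 4 peroxidase genes called under IAA or MV and for AT3G01190, PRX72, PRX52 and AT4G36430, which did not pass there. AT5G17820 reads 2.01 and 2.70 under MV in wild type seedlings against 4.40 and 4.13 with OsGRX8, and PRX52 differs between the MV replicates of each line.

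The overexpression line and the wild type did not differ in any of the 47 genes past the test, in any condition or over the mean of the 4 conditions, where 0% of all probe sets passed (limma). At an unadjusted p under 0.05, 14 of the 47 (29.8%) and 5.85% of all probe sets differed over the 4 conditions. In that mean 37 of the 47 genes stood higher in the overexpression line, with a median of 0.10 against 0.01 over all probe sets. The share of all probe sets that stood higher was not counted, and 15 of the 47 genes were near background in all 8 groups. Whether the family as a whole stood higher was not tested. AT5G17820 had the highest value, 0.78 ± 0.15, followed by AT1G49570 (0.56 ± 0.16), AT5G51890 (0.54 ± 0.29) and AT2G37130 (0.53 ± 0.12). Under MV alone AT5G17820 differed by 1.91 ± 0.30 (adjusted p = 0.126, limma), and 13 of the 47 (27.7%) had an unadjusted p under 0.05, against 5.33% of all probe sets. With arrays centred on their medians, the median of all probe sets in this comparison was -0.13 in place of 0.02.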

How the data were processed

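RNA from 16 seedling samples was hybridized to Affymetrix arrays, starting from 500 ng of total RNA per sample, per the labels' protocols. The deposited values are log2 signals per probe set. The authors used RMA, per the submitters' processing notes, which corrects background, normalizes by quantiles and summarizes probes by median polish, so small differences of dim probe sets are compressed. Neither its software nor its probe set definitions were stated in the labels. Of 22810 probe sets, 64 Affymetrix controls were left out and 22746 were tested. Names came from the platform annotation and the RefSeq gene table: 13513 probe sets had 1 gene, 13436 of them with a matched locus, 503 had several and 8730 were unnamed here.

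A model of 8 group means was fitted with limma 3.58.1 in R 4.3.3 (lmFit, eBayes without an intensity trend, 8 residual and 4.52 prior degrees of freedom), with two-sided tests. Precision is limited by the number of arrays. Over the 47 genes the median 95% half-width was 0.36 (log2) over both lines, 0.51 within a line and 0.72 for a difference of responses. In each comparison the rule for named genes took up to 8 falls and 8 rises among members past the threshold with no overlap of arrays, then members of neighbouring groups, and all members were accounted for. The members and lists were chosen with earlier results of these data known. The alternatives tried were median centring, quantile normalization once more, brighter probe sets, an intensity trend, removal of cross-hybridization suffixes, the compared arrays only, the replicate block and each array left out. No sequences were used here.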

Additional observations from a re-analysis of the deposited data

How the results depend on the processing

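Under NaCl the count over both lines was 26 and lay between 21 and 24 with any 1 array left out. It was between 13 and 16 in the wild type (20 with all arrays) and between 16 and 19 in the overexpression line (19). The F-test gave 20 to 28 in place of 22. No call under any treatment changed direction in the alternatives run. Under IAA over both lines the count of 2 became 1 on brighter probe sets, 0 on the compared arrays and 0 without both IAA replicate 2 arrays, and 0 to 6 with 1 array left out. In the wild type under IAA it was 0 to 5, and for the lines under IAA 0 to 2, in place of 0. Under MV over both lines the count of 2 falls became 4 falls with the intensity trend, 4 calls (1 higher, 3 lower) with the replicate block and 6 falls on the compared arrays; it was 1 higher and 1 lower with median centring and on brighter probe sets, and 0 to 3 with 1 array left out (at 3, without MV replicate 2 of the wild type, 1 was higher). It was 0 without water replicate 1 or 2 of the wild type or without water or MV replicate 2 of the overexpression line, and 1 without MV replicate 1 of either line. Under MV in the wild type it was 1 on brighter probe sets in place of 3, 1 without water replicate 1 or MV replicate 2 and 0 without water replicate 2, and in the overexpression line it was 1 with the intensity trend in place of 0. The cause was not tested. On brighter probe sets 19 of the 47 genes were fitted, so fewer could pass. Under NaCl over both lines 18 passed there and 31 on the compared arrays. Of all probe sets 4526 and 7203 were called in these settings, in place of 5805. With 1 array left out, NaCl calls over all probe sets fell too, so the lower counts are not particular to the family. Under MV 1613 probe sets were called with the intensity trend and 1547 on brighter probe sets, in place of 1701.

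Replicate numbers were not taken as pairs, since not every correlation was above 0.1: deviations from the group means correlated at -0.11 to 0.36 between same-numbered arrays of different groups (median 0.067). All 16 arrays were most like an array of the same number, which is a hint from the data and not from the design. The arrays of a group deviate from its mean by equal and opposite amounts. Their results therefore mirror each other, and the 16 are not independent. With the replicate block the counts over both lines were 27 under NaCl, 3 under IAA and 4 under MV.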

Other observations

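Replicate arrays of MV differed in the same sense in both lines for some members. Prx37, AT4G08780, AT5G19890, AT3G21770, AT4G36430 and PRX52 were higher by more than 0.5 (log2) on MV replicate 1 than on MV replicate 2 in both lines, which is 6 of 47 genes against 1.17% of all probe sets. Prx37 read 6.05 and 6.37 on replicate 1 of the lines and 4.88 and 5.24 on replicate 2. No member was higher on MV replicate 2 in both lines by that margin. Under IAA PRXR1, AT5G64100 and PRX71 were higher on replicate 1 in both lines by that margin. These 3 of 47 genes are close to the share of all probe sets (4.52%), and IAA replicate 2 had the weak 5′ actin signal. Under NaCl AT2G37130 was higher on replicate 2 in both lines (1 of 47 genes, against 0.339% of all probe sets). In water no member differed so.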
